A study of Mus musculus with 12 samples.

Results

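The 10 genes described here are the D-type cyclins Ccnd1, Ccnd2 and Ccnd3, their kinases Cdk4 and Cdk6, the INK4 inhibitors Cdkn2c and Cdkn2d, the CIP/KIP inhibitors Cdkn1a and Cdkn1b, and the retinoblastoma gene Rb1. They were taken by name as the core machinery of the G1 phase, 10 of 12199 genes in the table, by a rule that uses no measured value. All 10 passed the filter on low counts. RNA was sequenced from whole bone marrow (BM) cells of adult C57BL/6 mice. WT animals gave 3 libraries. DF animals carried Dnmt3a flox/+, MxCre and Flt3 ITD/+ and gave 3 libraries. TF animals were Tet2+/- and Flt3 ITD/+ and gave 3 libraries, and TFD animals carried all of these alleles together and gave 2 libraries, so every mutant carried Flt3 ITD/+, which encodes a receptor kinase that signals without its ligand. Poly(I:C) was given to every group, WT as well, and switches on the interferon-responsive Mx1 promoter that drives Cre. The WT mice came from a core facility, whereas the mutants were bred by crossing, and MxCre is given for DF and TFD only, so loss of a Dnmt3a allele and the presence of Cre cannot be told apart here. Another TFD sample was not analysed here.

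D-type cyclins are made when growth factor receptors signal, and they bind and activate CDK4 and CDK6. The active kinases phosphorylate the retinoblastoma protein, which then releases E2F transcription factors and lets the cell pass from G1 into S phase. INK4 proteins bind CDK4 and CDK6 and keep the cyclin out, whereas the CIP/KIP proteins p21 and p27 bind complexes of cyclin and kinase and block CDK2 in particular. In blood formation, cyclin D3 and CDK6 are known for their roles in lymphoid and erythroid progenitors, and CDK6 is also known for control of the exit of stem cells from rest.

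The libraries held 8274153 to 15900904 counts in genes. Of 12175 genes tested with edgeR, DF had 2560 higher and 2023 lower than WT at an adjusted p under 0.05, and scaling by library totals gave 1926 higher and 2622 lower. As a check of the labels, neither Tet2 in TF (0.20) and TFD (0.25) nor Dnmt3a in DF (−0.15) and TFD (0.29) passed against WT on the log2 scale, and the counts sum all exons and do not separate alleles. All 10 of 10 B cell markers were lower in each mutant genotype, with a summed level of 563.9 to 691.8 CPM, the counts scaled to library size, in WT and 16.6 to 90.21 in the mutants. Monocyte and macrophage markers were higher, 7 of 8 in DF, 7 of 8 in TF and 6 of 8 in TFD. Erythroid markers were lower, 8 of 8 in DF and 7 of 8 in both TF and TFD. No marker on these lists was at 0 in every library of a group. In bulk RNA, fewer cells of a type and less RNA per cell cannot be told apart. WT replicate 3, TF replicate 3 and TFD replicate 2 held over 10000 Xist reads each, and the other libraries did not. Leaving out either TFD library, or keeping only libraries with few Xist reads, left a single TFD library, which is then assumed to vary like the libraries of the other groups.

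Against WT, 6 of the 10 genes passed the test in DF, 3 in TF and 3 in TFD. In DF, 3 were higher (Cdk6, Cdkn2c and Cdkn2d) and 3 lower (Ccnd1, Ccnd3 and Rb1), where 37.6% of all genes tested passed, 21.0% higher and 16.6% lower. In TF, Cdkn2c was higher, and Ccnd3 and Rb1 were lower, against 34.6% of all genes, 19.0% higher and 15.6% lower. In TFD, Cdk6 was higher, and Ccnd1 and Ccnd3 were lower, against 26.3% of all genes, 14.7% higher and 11.6% lower. The median log2 fold change over the 10 genes was −0.04 in DF, 0.10 in TF and −0.03 in TFD, and over all genes it was 0.05, 0.02 and 0.01. Ccnd3 alone of the 10 passed in all 3 comparisons. The comparisons share their WT libraries. Leaving out WT replicate 1, WT replicate 2, DF replicate 1 or DF replicate 2 reduced the 6 calls in DF to 3, 2, 3 and 3, and leaving out WT replicate 1 or TFD replicate 1 reduced the 3 calls in TFD to 1.

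**Figure D1:**
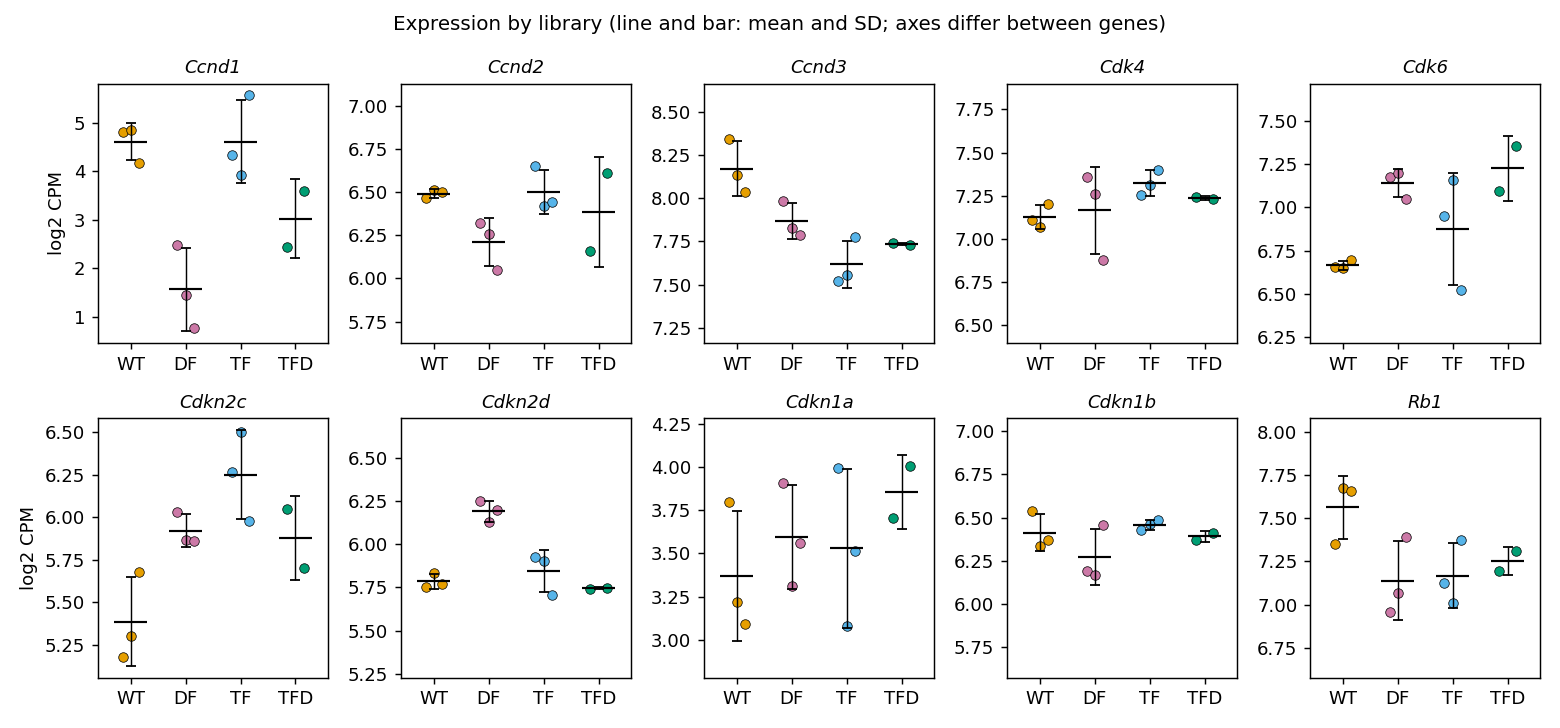
Log2 CPM (vertical axis) of each of the 10 genes in each library, by genotype (horizontal axis), with 1 point per library, a line at the group mean and bars of ± SD; the axes differ between genes. The DF points for Ccnd1 lie between 0.77 and 2.48, below all WT points, while the points for Cdkn1b overlap.

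Levels between genes were compared per length, as reads per kilobase of exon, scaled to library size (RPKM). In WT marrow, Ccnd3 was the most abundant of the 10 at 128 ± 14.2 RPKM (SD, n = 3), followed by Cdk4 at 104 ± 4.98. Cdkn2d (43.4 ± 1.34), Cdk6 (41.1 ± 0.76), Rb1 (41.1 ± 5.0) and Cdkn1b (35.5 ± 2.69) formed a middle tier, within which the range of Rb1 overlapped those of Cdkn2d, Cdk6 and Cdkn1b. Cdkn2c (18.8 ± 3.50) and Ccnd2 (15.6 ± 0.27) were lower, and Ccnd1 (6.59 ± 1.58) and Cdkn1a (5.21 ± 1.43) were lowest, with overlapping ranges. In the mutants Cdk4 stood first, at 107.7 ± 18.0 in DF, 119.1 ± 6.22 in TF and 112.1 ± 0.83 in TFD (n = 2), and Ccnd3 second. Their ranges overlapped in DF but not in TF or TFD. Ccnd1 was the lowest gene in DF (0.87 ± 0.53 RPKM) and in TFD (2.31 ± 1.24), but not in TF (7.28 ± 4.59), where its range overlapped that of Cdkn1a.

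Ccnd1 encodes cyclin D1, a D-type cyclin that is abundant in many epithelia and scarce in blood cells. The gene lies at chr7:144929931-144939925 (mm10, minus strand). Its level was 4.81, 4.85 and 4.18 log2 CPM in the WT libraries, 2.48, 1.45 and 0.77 in DF, 4.34, 3.92 and 5.57 in TF, and 2.45 and 3.6 in TFD. Every DF and every TFD library lay below every WT library, and the TF libraries spanned the WT range and beyond. The reads behind these levels were 342, 233 and 202 in WT and 70, 42 and 17 in DF. Ccnd1 was 7.42-fold lower in DF than in WT (log2 fold change −2.89, SE 0.49, adjusted p = 0.000692), and passed as lower under all 19 alternatives that kept the same threshold. Its size ranged from −3.48 without DF replicate 1 to −2.65 without DF replicate 3. Oraov1, whose GENCODE vM21 exons overlap at least 818 exonic bases of Ccnd1 on the other strand, stood at −0.19 in DF and did not pass. Ccnd1 was 2.89-fold lower in TFD (−1.53, SE 0.51, adjusted p = 0.0434), and in TF it did not pass (0.14, 95% interval −0.77 to 1.05, adjusted p = 0.819). The call in TFD was lost without TFD replicate 1, with 1 TFD library left (−1.04, adjusted p = 0.272), without WT replicate 1 (−1.43, 0.0926), WT replicate 2 (−1.42, 0.106) or DF replicate 2 (−1.53, 0.0572), and with DESeq2 (−1.53, adjusted p = 0.0666). With TFD replicate 1 as the single TFD library the value was further from 0, at −2.19 without TFD replicate 2 (0.0395) and −2.38 among libraries with few Xist reads (0.00221). In TF, the value was −0.50 without TF replicate 3 (adjusted p = 0.292) and −0.69 among libraries with few Xist reads (adjusted p = 0.0942).

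Markers of plasmacytoid dendritic cells, the main interferon-producing cells of the marrow, moved with Ccnd1. Their summed level was 133.5 to 153.7 CPM in WT, 53.74 to 55.88 in DF, 95.71 to 262.9 in TF and 66.29 to 106.9 in TFD. Of the 4 markers, 4 were lower in DF, 1 in TF and 3 in TFD. Siglech, a surface lectin that defines these cells, stood at 35.5, 42.2 and 42.3 CPM in WT, 1.35, 0.0644 and 0.0990 in DF, 15.8, 11.9 and 63.2 in TF, and 0.50 and 5.26 in TFD. TF replicate 3 was the highest library for both Ccnd1 and Siglech, and DF replicates 2 and 3 were the lowest for both. Summed erythroid markers were also highest among the mutants in TF replicate 3, at 1406 CPM. Single markers picked from other lists had the same order of genotypes, while others of those lists did not. Cdh5, an endothelial cadherin, changed by −2.11 in DF (adjusted p = 0.0158), with values of 0.19 in TF and −0.70 in TFD that did not pass. Col3a1 of the same list was higher in DF (1.89, adjusted p = 0.0292), and the summed stromal and endothelial level overlapped between all groups. Cd4, listed with the T and NK cell markers and singled out after its values were seen, was lower in DF (−1.92, adjusted p = 0.00607) and stood at 0.03 in TF and −0.99 in TFD, which did not pass. Of the T and NK cell markers, Gzma fell most in TF (−4.36, against −3.87 in DF and −2.85 in TFD). Cd8a fell most in TFD (−2.12, against −0.92 in DF and −0.92 in TF). The part of these cell types in the Ccnd1 values was not tested.

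**Figure D2:**
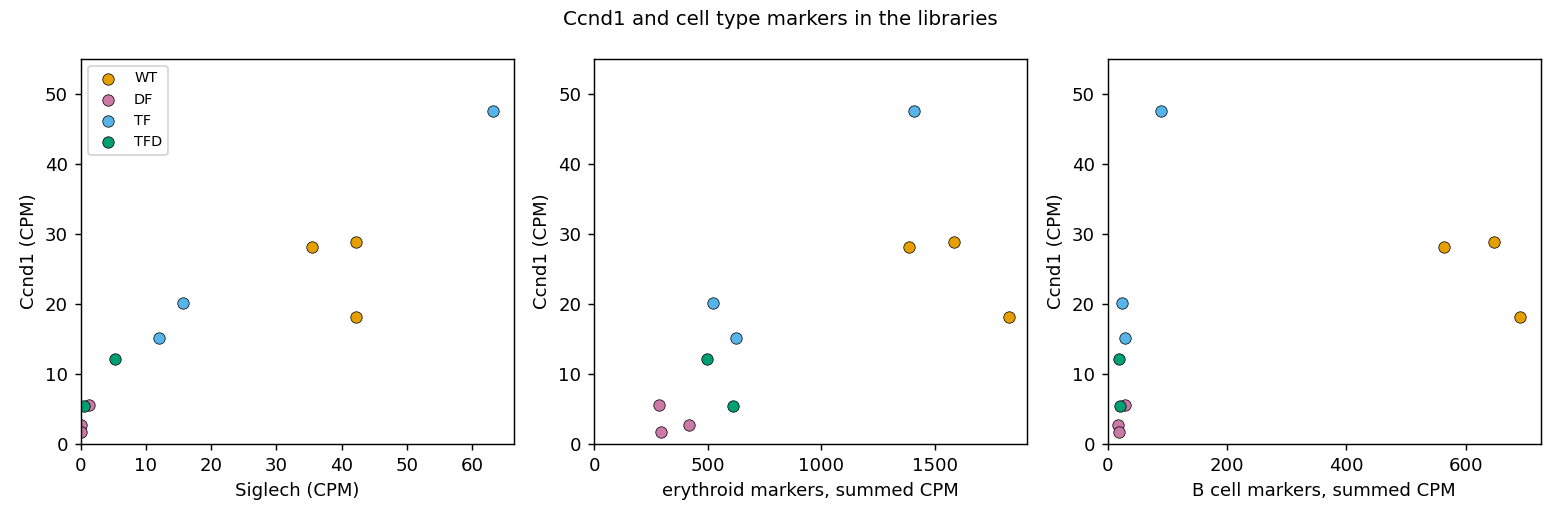
CPM of Ccnd1 (vertical axes) against CPM of Siglech, summed CPM of the erythroid markers and summed CPM of the B cell markers (horizontal axes, all linear), with 1 point per library coloured by genotype. The DF libraries, at 1.35 CPM of Siglech or less, sit at the bottom left of the first panel and TF replicate 3, at 63.2, at the top right, while in the B cell panel TF replicate 3 lies with the mutants at 90.21 CPM.

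Ccnd2, which encodes cyclin D2, lies at chr6:127125709-127151048 (minus strand). It did not pass against WT in any mutant, with log2 fold changes of −0.28 in DF (95% interval −0.55 to −0.0049, adjusted p = 0.1), 0.02 in TF (−0.26 to 0.29) and −0.09 in TFD (−0.40 to 0.21). The WT libraries held 6.46, 6.51 and 6.50 log2 CPM and the DF libraries 6.32, 6.26 and 6.05. The DF libraries thus lay below all WT libraries. The gene passed in DF without TFD replicate 1 (−0.28, adjusted p = 0.0485), without TFD replicate 2 (−0.30, 0.0323), when only DF and WT entered the fit (−0.31, 0.0371) and with library totals (−0.36, 0.0393).

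Ccnd3 encodes cyclin D3, the main D-type cyclin RNA of this tissue per length. It lies at chr17:47505051-47599688 (plus strand). Its level was 8.35, 8.13 and 8.04 log2 CPM in WT, 7.98, 7.83 and 7.79 in DF, 7.52, 7.56 and 7.77 in TF, and 7.74 and 7.73 in TFD. All 8 mutant libraries lay below all 3 WT libraries. The log2 fold change (± SE) was −0.31 ± 0.11 in DF, −0.56 ± 0.11 in TF and −0.44 ± 0.12 in TFD, with adjusted p of 0.042, 0.00218 and 0.0195. These were falls of 1.24-fold, 1.47-fold and 1.36-fold. The TF call held under all 19 alternatives. The DF call was lost without WT replicate 1 or 2, DF replicate 2 or 3 or TF replicate 1 or 2 (−0.33 to −0.25, adjusted p from 0.0534 to 0.121), and with a term for Xist reads (−0.30, 0.062). The TFD call was lost without WT replicate 1 (−0.35, 0.0593), when only TFD and WT entered the fit (−0.45, 0.0545), and with 1 TFD library left, replicate 2 (−0.45, 0.0733) or replicate 1 (−0.43, 0.0817). Of the 2260 exonic bases counted for Ccnd3, at least 358 overlap Bysl on the other strand, and Bysl (0.06, −0.20 and −0.07 in DF, TF and TFD) did not pass. Lymphoid markers were lower as well, with T and NK cell markers lower for 6, 3 and 5 of 9 in DF, TF and TFD, beside the B cell markers above. Their order of genotypes was another one, since both lists fell least in TF, where Ccnd3 fell most. The median log2 fold change in DF, TF and TFD was −1.03, −0.50 and −1.59 for T and NK cell markers. For B cell markers it was −6.12, −4.21 and −6.20. The summed T and NK cell level was 88.84 to 95.26 CPM in WT, 73.34 to 87.14 in DF, 61.89 to 82.82 in TF and 45.98 to 72.67 in TFD. Nkg7 alone held a mean of 44.1 CPM of it in WT and 61.7 in DF. The part of these cells in the Ccnd3 values was not tested.

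Within the D-type cyclins, Ccnd3 made up 84.1% to 86.4% of their summed RPKM in WT, 87.8% to 89.1% in DF, 77.9% to 81.6% in TF and 82.4% to 87.3% in TFD. The share of Ccnd1 was 3.48% to 5.15% in WT, 0.404% to 1.15% in DF, 3.90% to 10.1% in TF and 1.32% to 2.80% in TFD. The TF libraries thus had a smaller Ccnd3 share than every WT library, and the DF libraries a larger one. These shares are descriptions and were not tested.

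**Figure D3:**
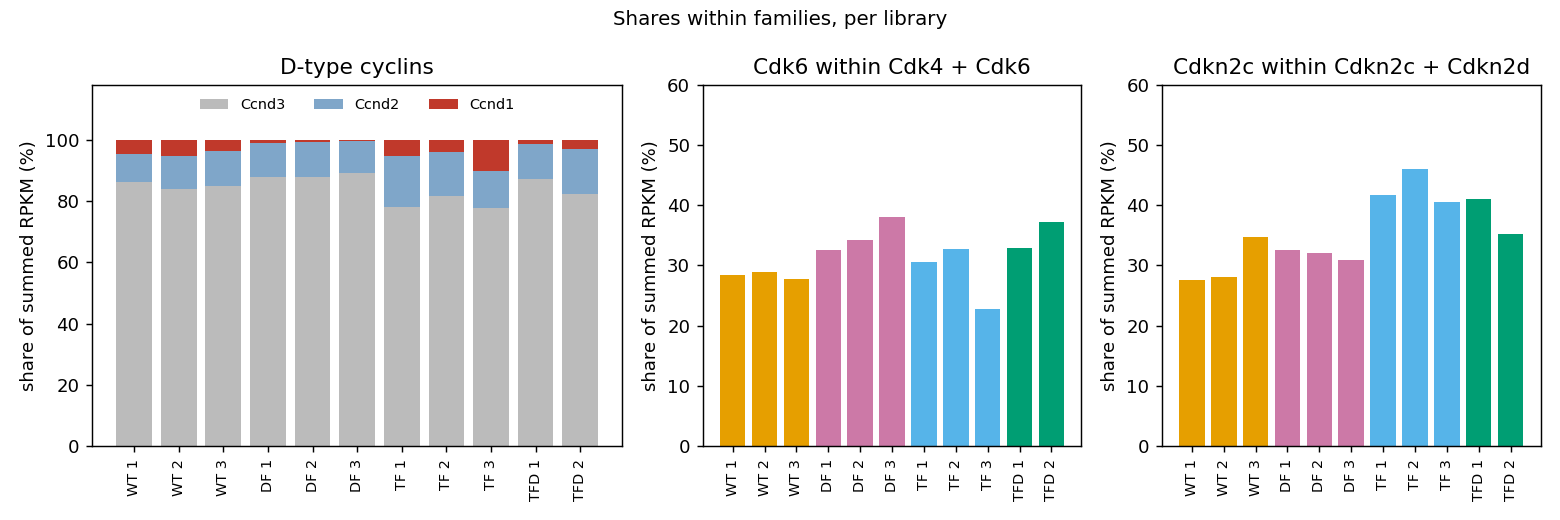
Share in percent of summed RPKM (vertical axes) taken by each D-type cyclin (stacked bars), by Cdk6 within Cdk4 and Cdk6, and by Cdkn2c within Cdkn2c and Cdkn2d, with 1 bar per library; the last panels are coloured by genotype. Ccnd3 takes the largest part of the cyclin bar in every library, and the Ccnd1 part is 0.404% to 1.15% in DF.

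Cdk4 and Cdk6 encode the partner kinases of the D-type cyclins. Cdk4 (chr10:127063603-127067282, plus strand) did not pass in any comparison. Its log2 fold change was 0.19 in TF (95% interval −0.06 to 0.45) and 0.11 in TFD (−0.18 to 0.39). In DF it was 0.05 (−0.20 to 0.31), and −0.03 with library totals. Cdk6 (chr5:3344312-3522225, plus strand) was at 6.65, 6.65 and 6.70 log2 CPM in WT, 7.18, 7.20 and 7.05 in DF, 6.95, 7.16 and 6.52 in TF, and 7.09 and 7.36 in TFD. All DF and TFD libraries lay above all WT libraries, and TF replicate 3 lay below them. Cdk6 was higher by 0.48 ± 0.14 (SE) on the log2 scale in DF and by 0.56 ± 0.16 in TFD, with adjusted p of 0.0178 and 0.0175, and stood at 0.23 ± 0.14 in TF, which did not pass (adjusted p = 0.215). Cdk6 passed in TF without TF replicate 3 (0.39, adjusted p = 0.0221) and among libraries with few Xist reads, which also leave that library out (0.40, adjusted p = 0.0264). The DF call was lost without any single WT library, DF replicate 1 or DF replicate 2 (0.44 to 0.47, adjusted p from 0.0526 to 0.0647), and the TFD call with TFD replicate 1 as its single library, either without TFD replicate 2 (0.43, 0.123) or among libraries with few Xist reads (0.44, 0.0547). Cdk6 made up 27.7% to 28.9% of the summed RPKM of the kinase pair in WT, 32.5% to 38.0% in DF, 22.8% to 32.8% in TF and 32.9% to 37.3% in TFD. The summed level of 7 stem and progenitor markers was 175.9 to 192.4 CPM in WT and 304.2 to 338.7 in DF, 280.3, 324.1 and 188.4 in TF, and 291.8 and 259.6 in TFD. TF replicate 3 was thus the lowest mutant library for both Cdk6 and this sum. The rise in the sum lay mainly in 1 gene, Cd34. Its mean was 37.5 CPM for WT, against 146.4 (DF), 136.6 (TF) and 130.2 (TFD). Kit, by contrast, had means of 77.1 CPM for WT and 91.4, 70.7 and 77.0 for the mutants, in the same order. Over all 7 markers the median log2 fold change against WT was 0.36 (DF), −0.10 (TF) and −0.0036 (TFD). Of these markers, 2 passed as higher in DF, 1 as higher and 1 as lower in TF and 2 as higher in TFD, with Cd34 higher in each (1.96, 1.86 and 1.79), and their part in the Cdk6 values was not tested.

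Cdkn2c and Cdkn2d encode p18 and p19, the INK4 inhibitors of CDK4 and CDK6 that were measured here. Their relatives Cdkn2a and Cdkn2b were not among the genes tested. The promoter windows of this pair are shown because they are the inhibitors that passed the test. Each window runs from 250 bases before to 50 after an annotated start (RefSeq, GRCm38.p6, the build called mm10) and is written 5′ to 3′ on the minus strand, the strand of the gene. Capitals mark the GC box GGGCGG on either strand. The Cdkn2c windows are chr4:109666707-109667006 (upstream start) and chr4:109665323-109665622 (downstream start), and the Cdkn2d window is chr9:21291160-21291459.
Cdkn2c upstream start: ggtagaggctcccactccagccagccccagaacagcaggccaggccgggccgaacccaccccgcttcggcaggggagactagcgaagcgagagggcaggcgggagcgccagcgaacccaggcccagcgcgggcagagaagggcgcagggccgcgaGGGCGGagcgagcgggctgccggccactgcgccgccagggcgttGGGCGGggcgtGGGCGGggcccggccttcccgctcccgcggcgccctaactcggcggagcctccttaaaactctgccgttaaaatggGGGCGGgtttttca
Cdkn2c downstream start: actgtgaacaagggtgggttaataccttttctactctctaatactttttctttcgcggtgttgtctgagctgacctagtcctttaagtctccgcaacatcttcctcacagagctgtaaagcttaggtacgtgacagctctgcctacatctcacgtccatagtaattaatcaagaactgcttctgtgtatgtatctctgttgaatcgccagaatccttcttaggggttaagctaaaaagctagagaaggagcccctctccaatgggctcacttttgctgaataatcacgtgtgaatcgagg
Cdkn2d: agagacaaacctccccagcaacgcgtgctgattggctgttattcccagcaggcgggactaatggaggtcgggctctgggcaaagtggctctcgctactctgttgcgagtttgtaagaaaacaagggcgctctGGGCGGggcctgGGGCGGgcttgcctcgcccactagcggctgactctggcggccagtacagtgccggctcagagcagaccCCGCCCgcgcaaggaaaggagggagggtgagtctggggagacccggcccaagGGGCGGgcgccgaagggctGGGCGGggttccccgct

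The upstream Cdkn2c window held 4 GC boxes and 33 CpG dinucleotides, and the Cdkn2d window 5 GC boxes and 22 CpG. The downstream Cdkn2c window held 0 GC boxes, 8 CpG and 1 E-box (CACGTG). Of 32851 RefSeq windows of 300 bases, 35.7% held a GC box and 7.15% an E-box, and the median window had 7 CpG. An E2F motif (TTTCCCGC, TTTCGCGC, TTTGCCGC or TTTGGCGC on either strand) was found in 2.26% of all windows and in 0 windows of the 7 genes of this machinery with an entry, which says only that these letters are not in these windows.

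Cdkn2c (chr4:109660876-109666756, minus strand) was at 5.18, 5.30 and 5.68 log2 CPM in WT, 6.03, 5.87 and 5.86 in DF, 6.27, 6.50 and 5.98 in TF, and 6.05 and 5.70 in TFD. Every mutant library lay above every WT library, with TFD replicate 2 nearest to WT replicate 3. The log2 fold change (± SE) was 0.86 ± 0.16 in TF, 0.52 ± 0.16 in DF and 0.49 ± 0.18 in TFD. The adjusted p was 0.00151, 0.0227 and 0.0604, so that the TFD value did not pass. The TF call held under all 19 alternatives. The DF call was lost without WT replicate 1 (0.38, adjusted p = 0.117), WT replicate 2 (0.47, 0.077) or DF replicate 1 (0.44, 0.0922) and with library totals (0.43, 0.059). In TFD the gene passed without WT replicate 3 (0.65, 0.0246), TF replicate 2 (0.49, 0.0477) or TF replicate 3 (0.49, 0.0347). It also passed with TFD replicate 1 as the single TFD library, without TFD replicate 2 (0.65, 0.0443) and among libraries with few Xist reads (0.81, 0.00362).

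Cdkn2d (chr9:21288464-21291209, minus strand) followed another pattern. Its level was 5.75, 5.83 and 5.77 log2 CPM in WT, 6.25, 6.13 and 6.20 in DF, 5.92, 5.90 and 5.70 in TF, and 5.74 and 5.75 in TFD. The DF libraries lay above all others, and the TFD libraries lay just below the lowest WT library. Cdkn2d was higher in DF than in WT by 0.41 on the log2 scale (SE 0.09, adjusted p = 0.00493), a call that held under all 19 alternatives. It did not pass in TF (0.06, 95% interval −0.14 to 0.27) or TFD (−0.04, −0.27 to 0.19). Early granulocyte markers were also higher in DF, 5 of 5, against 1 of 5 in TF and 2 of 5 in TFD. Their summed level was 2981 to 3139 CPM in WT, 4676 to 6489 in DF, 2753 to 4493 in TF and 3944 to 5735 in TFD. Both TFD libraries thus lay above all WT libraries in this sum, unlike in Cdkn2d. The part of these markers in the Cdkn2d values was not tested. Cdkn2c made up 27.5% to 34.7% of the summed RPKM of both inhibitors in WT, 30.9% to 32.6% in DF, 40.6% to 46.1% in TF and 35.3% to 41.1% in TFD, so that the TF and TFD libraries lay above all WT and DF libraries in this share.

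Cdkn1a and Cdkn1b encode the CIP/KIP inhibitors p21 and p27. Neither passed in any comparison. Cdkn1a (chr17:29090986-29100722, plus strand) ranged from 3.09 to 3.80 log2 CPM in WT, 3.31 to 3.91 in DF, 3.08 to 3.99 in TF and 3.70 to 4.01 in TFD. Its log2 fold change was 0.20 in DF (95% interval −0.35 to 0.75), 0.17 in TF (−0.38 to 0.72) and 0.45 in TFD (−0.15 to 1.05), so that a 2-fold rise lay within the interval in TFD only. Cdkn1b (chr6:134920401-134925525, plus strand) lay within 6.17 to 6.54 log2 CPM in all 11 libraries, with log2 fold changes of −0.14 in DF (−0.36 to 0.08), 0.04 in TF (−0.18 to 0.26) and −0.03 in TFD (−0.28 to 0.22). Cdkn1a is a target of p53, and of 11 other p53 targets tested, 1 was higher and 3 lower in DF, 2 higher and 3 lower in TF, and 1 lower in TFD, where 37.6%, 34.6% and 26.3% of all genes passed. Pmaip1, a promoter of cell death, was higher in TF (1.13, SE 0.31, adjusted p = 0.0129), Tnfrsf10b, a death receptor, was lower in TF (−1.28, SE 0.33), and Phlda3, a repressor of AKT, was lower in DF (−2.36, SE 0.86, adjusted p = 0.0458). Phlda3 had 29, 3 and 10 reads in the WT libraries and 3, 1 and 5 in DF, and WT replicate 2, at 0.371 CPM, lay within the DF range of 0.0644 to 0.495.

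Rb1 (chr14:73195502-73325791, minus strand) encodes the retinoblastoma protein, the substrate on which these kinases act in G1. It was at 7.35, 7.68 and 7.66 log2 CPM in WT, 6.96, 7.07 and 7.39 in DF, 7.12, 7.01 and 7.38 in TF, and 7.19 and 7.31 in TFD. WT replicate 1 lay below DF replicate 3 and TF replicate 3, so these groups overlapped, and the TFD libraries lay below all WT libraries. The log2 fold change (± SE) of Rb1 was −0.42 ± 0.14 in DF and −0.39 ± 0.14 in TF, which passed with adjusted p of 0.0312 and 0.0442, and −0.32 ± 0.16 in TFD, which did not (adjusted p = 0.156). The DF call was lost without WT replicate 2 or 3 or DF replicate 1 or 2 (−0.41 to −0.35, adjusted p from 0.0646 to 0.108) and with a term for Xist reads (−0.35, 0.0565), and the TF call without WT replicate 2 or 3, DF replicate 2, or TF replicate 1 or 2 (−0.39 to −0.32, adjusted p from 0.0591 to 0.154). In GENCODE vM21, exons of Rcbtb2 overlap at least 105 exonic bases of Rb1 on the other strand, and Rcbtb2 was higher in each mutant (0.62, 0.61 and 0.49).

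**Figure D4:**
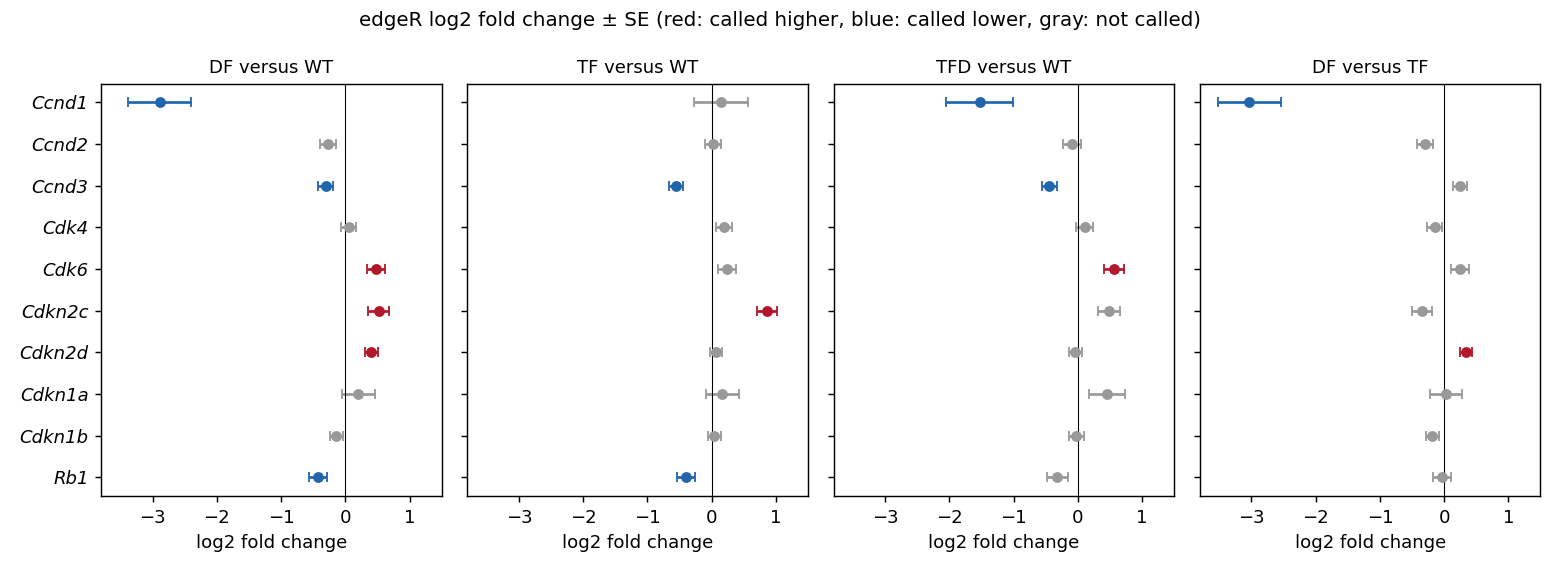
Log2 fold change from edgeR (horizontal axes) of the 10 genes (rows) in DF, TF and TFD against WT and in DF against TF, with bars of ± SE; red marks genes that passed as higher, blue as lower and gray those that did not pass. Ccnd1 lies farthest from 0 in DF against WT (−2.89) and DF against TF (−3.03), and Ccnd3 lies below 0 in each mutant against WT.

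Other genes of the pathway were counted beside all genes tested, of which 37.6% passed in DF (16.6% as lower), 34.6% in TF (15.6%) and 26.3% in TFD (11.6%). Of 22 tested genes of a list of other G1 and restriction point genes, 1 was higher and 6 lower in DF, 9 were lower in TF and 5 were lower in TFD, and the median log2 fold change was −0.25, −0.20 and −0.15. Ccne1, which encodes cyclin E1, the partner of CDK2 after the D-type cyclins have acted, was lower in each mutant, with log2 fold changes of −1.66 in DF (SE 0.21), −1.08 in TF (SE 0.21) and −1.25 in TFD (SE 0.24). E2f4, a repressor E2F that works with the pocket proteins, was lower in each mutant too (−1.11 in DF, −0.84 in TF and −0.82 in TFD). Ccne2 and Fbxw7, the latter an adaptor that marks cyclin E for destruction, also passed as lower in DF, TF and TFD. The values were −0.48, −0.69 and −0.73 for Ccne2 and −0.49, −0.29 and −0.39 for Fbxw7. Cdc25a, a phosphatase that activates CDK2, passed as lower in TF (−0.45) and TFD (−0.44), and E2f8 in DF (−0.54) and TF (−0.51).

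Among 18 genes of S phase and mitosis, 7 were lower in DF, 4 in TF and 9 in TFD, and the others did not pass. The shares of all genes given above are those to read these counts beside. Their median log2 fold change was −0.24, −0.19 and −0.37. Their summed level was 7128 to 7590 CPM in WT, 5562 to 6446 in DF, 6103 to 6334 in TF and 5529 to 5974 in TFD, so no mutant library reached the WT range. Cdc6, which loads the replicative helicase, changed by −1.04 in DF, −0.78 in TF and −0.84 in TFD. Rrm2, a subunit of ribonucleotide reductase, changed by −0.74, −0.60 and −0.52, and Mcm4, a subunit of the helicase, by −0.57, −0.48 and −0.41, and all of these passed. Erythroid markers (median −4.19, −1.37 and −2.15 in DF, TF and TFD) and B cell markers (−6.12, −4.21 and −6.20), the latter with genes of early B progenitors, were lower in the same genotypes, and their part in these values was not tested.

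Between the mutants, 2 of the 10 genes passed in DF against TF, where 5.94% of all genes passed, 1.67% higher and 4.27% lower in DF. Ccnd1 was 8.19-fold lower in DF than in TF (log2 fold change −3.03, SE 0.49, adjusted p = 0.00485), with no overlap between the libraries, and the call held under all 19 alternatives (−3.62 without DF replicate 1 to −2.39 without TF replicate 3). The log2 level of Cdkn2d in DF exceeded that in TF by 0.35 (SE 0.09, adjusted p = 0.0489), and this call held under only 3 of 19 alternatives, with an adjusted p of up to 0.282. Leaving out any library other than TFD replicate 1 ended it (0.28 to 0.39, adjusted p from 0.0627 to 0.235). The other 8 genes did not pass in DF against TF. For Ccnd3 the difference was 0.25 (95% interval 0.0098 to 0.48, adjusted p = 0.24). For Cdkn2c it was −0.34 (−0.69 to −0.0031, adjusted p = 0.257), and −0.50 among libraries with few Xist reads, where it passed (adjusted p = 0.0319). Plasmacytoid dendritic cell markers, 4 of 4, and erythroid markers, 7 of 8, were lower in DF than in TF.

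TFD was set against each double mutant to compare the triple mutant with each pair of alleles. In DF against TFD, edgeR called 0 of the 10 genes and 0% of all genes, of which 1727 had an unadjusted p under 0.05, and DESeq2 called 103 higher and 155 lower. Here 2 of the 10, Ccnd1 and Cdkn2d, had an unadjusted p under 0.05, and DESeq2 called 1, Cdkn2d (0.42, adjusted p = 0.0296). The Ccnd1 difference, DF minus TFD, was −1.36 (95% interval −2.55 to −0.17, adjusted p = 0.296), and that of Cdkn2d was 0.45 (0.22 to 0.68, adjusted p = 0.122). In TF against TFD, edgeR called 0 of the 10 genes and 0.0164% of all genes (0.00821% in each direction), 1 of the 10 and 1068 of all genes had an unadjusted p under 0.05, and DESeq2 called 0 of the 10. That gene was Ccnd1, at 1.67 for TF minus TFD (0.56 to 2.78, adjusted p = 0.339). The order of mean Ccnd1 levels was DF below TFD below both TF and WT, in which the steps from TFD to either double mutant did not pass after adjustment. Leaving out 1 library moved the step from DF between −1.95 (without DF replicate 1) and −0.73 (without TFD replicate 2), and that from TF between 1.04 (without TF replicate 3) and 2.32 (without TFD replicate 2).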

How the data were processed

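RNA-seq was done on 11 libraries of whole BM cells from mice of 4 genotypes, from total RNA depleted of globin transcripts, with a stranded kit. The authors mapped reads with STAR to mm10, kept unique matches, and summed them over RefSeq exons with featureCounts. They state a filter of more than 0.5 CPM in more than 3 samples, which 24 of the 12199 deposited genes did not pass in the 11 libraries. No tool version or strand setting for featureCounts is given in the sources used here. The deposited log2 CPM values were equal to those of edgeR with a prior count of 0.25, within 5e-09. The deposited gene length, in bases, was used for RPKM.

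The counts were tested with edgeR 4.0.16 (R 4.3.3) by quasi-likelihood F tests with TMM factors (0.924 to 1.04), 1 mean per genotype over 11 libraries, after the same CPM filter (12175 of 12199 genes). P-values were adjusted by Benjamini-Hochberg over all genes tested, with a threshold of 0.05. The 95% intervals use the total degrees of freedom of the test, the residual ones plus those gained by sharing the spread between genes. The labels do not say more of the replicates than that they are separate samples, so p-values measure the spread between these samples. Alternatives were DESeq2 1.42.0, other scaling factors, no filter, only the groups compared, a replicate block, a 2-fold minimum, a term for Xist reads, libraries with few Xist reads, and leaving out each library. The fits were tested on simulated data. All 10 genes are described. Other G1 genes were named where called in at least 2 mutant genotypes, genes of the other lists could be named where among the 3 largest called changes (marker lists are mostly given as counts and sums), and the 3 nearest profiles for each member called against WT. Oraov1, Bysl and Rcbtb2 were named for their position. The genes and lists were chosen with earlier results of these data known. Promoter windows and their motifs were read with Python 3.11.15 for the 7 genes with an entry. Figures were drawn with matplotlib 3.10.9.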

Additional observations from a re-analysis of the deposited data

Results flagged for a closer look

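The direct test between DF and TF picked out Ccnd1 and Cdkn2d, whose changes against the shared WT libraries differed between these genotypes. For Ccnd1 the difference, DF minus TF, was −3.03 on the log2 scale, and every DF library lay below every TF library. For Cdkn2d it was 0.35, and every DF library lay above every TF library. TF replicate 3 was highest of the TF libraries for Ccnd1 and lowest for Cdkn2d. Leaving it out gave a Ccnd1 difference of −2.39 and a Cdkn2d difference of 0.28, the latter no longer called.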

How the results depend on the processing

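Calls for Ccnd1 and Cdkn2d in DF against WT, for Ccnd3 and Cdkn2c in TF against WT, and for Ccnd1 in DF against TF kept their direction and threshold under all 19 alternatives other than the 2-fold minimum, which left Ccnd1 as the sole call. That minimum gave 1, 0, 1 and 1 called genes in DF, TF and TFD against WT and in DF against TF. Leaving out 1 library gave 2 to 7 calls in DF, 2 to 4 in TF and 1 to 4 in TFD against WT, and 1 to 2 in DF against TF. RLE factors, library totals, only the groups compared and the Xist term each gave 1 call in DF against TF, and DESeq2 gave 1 in DF against TFD. The replicate numbers did not pair the samples: 3 of 15 same-numbered pairs correlated above 0.1 (−0.299 to 0.247). With the replicate block 5, 3 and 2 genes were called against WT and 1 in DF against TF, the calls lost being Ccnd3 in DF (−0.31, adjusted p = 0.0567), Ccnd1 in TFD (−1.48, 0.0808) and Cdkn2d in DF against TF (0.35, 0.0707).

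Signs turned only for values that were not called. Against WT these were Cdk4 in DF (library totals −0.033; leaving out a library −0.065 to 0.15), Ccnd1 in TF (Xist term −0.036; few Xist reads −0.69; −0.50 to 0.44), Ccnd2 in TF (DESeq2 −0.00555, RLE factors −0.00564; −0.062 to 0.058), Cdkn1a in TF (−0.10 to 0.42), Cdkn1b in TF (few Xist reads −0.0033), Ccnd2 in TFD (−0.33 to 0.12) and Cdkn1b in TFD (replicate block 0.0017; −0.064 to 0.038). In DF against TF they were Cdkn1a (library totals −0.048; few Xist reads −0.029; −0.16 to 0.30) and Rb1 (Xist term 0.044; few Xist reads 0.051; −0.19 to 0.084). The cause was not tested. The 17 to 70 Ccnd1 reads in DF limit the precision of its fold change, and 2 TFD libraries that of every comparison with TFD.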

Other observations

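The genes with the profile most like that of each member over the 11 libraries were sought by the root mean square (RMS) difference of centred log2 CPM, as a description. For Ccnd1, whose own RMS spread was 1.45, they were Zbtb46 (0.442), a transcription factor, Oas2 (0.446), an interferon-induced gene, and Fads3 (0.472). For Ccnd3 (spread 0.235) they were Ubqln1 (0.0769), Traf3 (0.0956) and Tti1 (0.103), and for Rb1 (0.231) Adam10 (0.0715), Ankrd13c (0.0733) and Zmym2 (0.0761). For Cdk6 (0.266) they were Kdsr (0.105), Snx17 (0.117) and Ccdc115 (0.118), for Cdkn2c (0.368) Cbx8 (0.113), a Polycomb subunit, 1500012F01Rik (0.127) and 2610524H06Rik (0.147), and for Cdkn2d (0.189) Stxbp2 (0.0708), Myl6 (0.0813) and Scp2 (0.085).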
